A study of Mus musculus with 4 samples.

Results

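The 10 genes described here, Trp63, Procr, Lgr6, Tspan8, Cd24a, Bmi1, Prom1, Sox9, Sox10 and Bcl11b, are regulators or surface markers of mammary stem and progenitor cells. They were taken by symbol, and every probe set that the platform annotation gives to exactly 1 of them was kept. This gave 28 of the 45037 probe sets that are not controls, and 10 of 18193 named genes. The RNA came from mouse mammary cells of the basal gate, sorted fresh, a fraction enriched for stem cells that also holds myoepithelial cells and their progenitors, per the labels. All 4 samples carried the MMTV-Wnt1 transgene, in which the promoter of the mouse mammary tumour virus drives the Wnt1 ligand in mammary epithelium, on the mixed background B66SJL/HEV/J. A pair of samples had the control diet with casein (CAS) as protein, and the other pair a diet with soy protein isolate (SPI), n = 2 arrays per diet. Age, the number of animals behind a sample and the surface markers of the sort are not given in the sources used here. Nothing says that the samples of a diet came from separate animals, so p-values measure only how far these samples spread, which can be technical.

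The mammary duct has an inner luminal and an outer basal layer, and the basal layer holds contractile myoepithelial cells and cells that can rebuild a gland after transplantation. Trp63 encodes p63, the transcription factor on which basal epithelial identity depends. Procr, Lgr6 and Tspan8 are surface proteins that mark subsets of mammary stem or progenitor cells, and Cd24a and Prom1 are surface glycoproteins used to separate the layers. Bmi1, Sox9, Sox10 and Bcl11b act in the nucleus, Bmi1 as a polycomb repressor, Sox9 and Sox10 as transcription factors of the same Sox subgroup, and Bcl11b as a zinc finger factor also known from the T cell lineage. The question set by the design is whether the soy diet changed the transcripts of these genes in basal cells already exposed to Wnt1.

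For Procr, Lgr6 and Bmi1, the RefSeq promoter table (GRCm38.p6) held a stretch that lies wholly before the gene. Of the 6 members with an entry in that table, these 3 were the ones with such a stretch. The p-values played no part in the choice. Each runs from 250 to 101 bases before an annotated start, 5′ to 3′ along the gene's strand, at chr2:155750967-155751116 (plus strand) for Procr, chr1:135105377-135105526 (minus strand) for Lgr6 and chr2:18676768-18676917 (plus strand) for Bmi1. Capitals mark GC boxes, spelled GGGCGG or, on the other strand, CCGCCC.
Procr: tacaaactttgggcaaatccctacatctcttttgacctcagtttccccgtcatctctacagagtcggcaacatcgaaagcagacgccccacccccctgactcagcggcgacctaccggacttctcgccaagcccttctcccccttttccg
Lgr6: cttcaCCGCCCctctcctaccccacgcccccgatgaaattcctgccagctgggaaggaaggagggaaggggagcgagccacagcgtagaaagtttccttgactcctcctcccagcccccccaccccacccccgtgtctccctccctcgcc
Bmi1: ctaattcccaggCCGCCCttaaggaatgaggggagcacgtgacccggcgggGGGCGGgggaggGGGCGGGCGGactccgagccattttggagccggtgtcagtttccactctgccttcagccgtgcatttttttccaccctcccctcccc
The Bmi1 stretch held 4 GC boxes, of which a pair overlap, the Lgr6 stretch held 1 and the Procr stretch 0. Of all 32851 stretches of this length and position in the table, 16.7% held a GC box. None of the 3 held the core of TCF and LEF factor sites (CTTTGA or TCAAAG) or the core of SOX sites (ACAAT or ATTGT), which 9.26% and 18.6% of all stretches held. The matches describe these letters and nothing about binding. Trp63, Cd24a, Sox9 and Sox10 had no entry in the promoter table.

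No member probe set passed the test of diet at an adjusted p of 0.05 (limma, Benjamini-Hochberg over all 45037 probe sets). The share of all probe sets that passed was 1.50%, with 0.249% higher and 1.25% lower in SPI. At an unadjusted p under 0.05 there were 7 of the 28, or 25%, of which 5 were higher and 2 lower, where the share of all probe sets was 17.8%, or 9.43% higher and 8.35% lower. The median difference (SPI minus CAS, on the log2 scale) was 0.033 over the 28 and 0.023 over all probe sets, and the median size of the difference without its sign was 0.13 and 0.11. The 95% interval of every member probe set lay within a 2-fold change in either direction. In simulations with the spread of these arrays, the test found 0.597% of probe sets with a true log2 change of 0.585 and 51.6% of those with a change of 1. Those simulations changed 200 probe sets per run, where 676 passed in these data, so the adjustment was stricter and the recoveries need not carry over. Not passing with 2 arrays per diet does not show that a member was unchanged.

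The deposited log2 values are centred on the median of the 4 arrays of each probe set. They give differences between arrays and no level, and of the 4 values the inner pair mirror each other around 0. The digits of the values still show a coarse level class, which was 8 to 16 on the log2 scale for 14 member probe sets, 4 to 8 for 12 and 2 to 4 for 2. Of 43 olfactory receptor probe sets 9 also lay at 4 or above, so this class does not establish expression. Of the 28 probe sets, 8 had both SPI arrays above both CAS arrays and 8 had both below, and on 12 the diets overlapped. The 16 without overlap are 57.1%, where the share of all probe sets is 48.4%, with 27.9% above and 20.5% below.

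**Figure D1:**
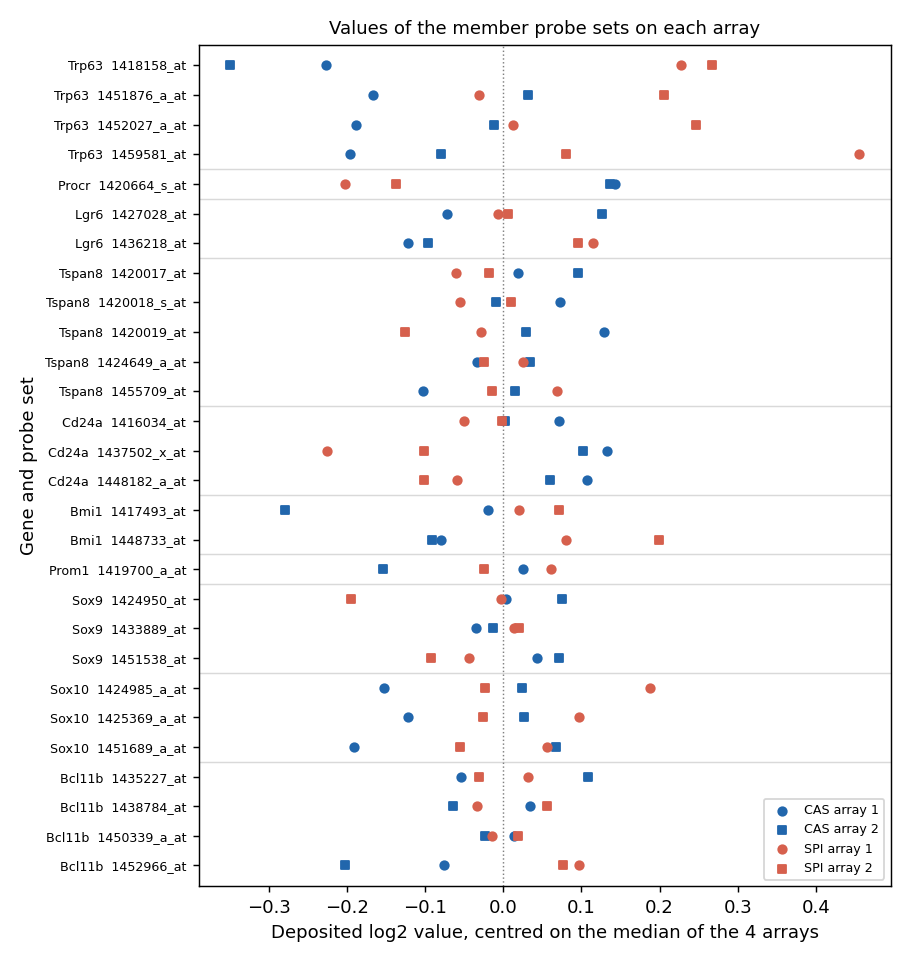
The deposited log2 value of each of the 28 member probe sets (rows, by gene) on each of the 4 arrays, CAS in blue and SPI in red, with circles for array 1 and squares for array 2 of a diet. Both SPI arrays lie to the right of both CAS arrays on 3 of the 4 Trp63 probe sets and on both Bmi1 probe sets. They lie to the left on the Procr probe set and on all 3 Cd24a probe sets. Of all probe sets, 27.9% have both SPI arrays above both CAS arrays and 20.5% have both below.

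Trp63 had the largest difference and the smallest p of the members. Probe set 1418158_at was at -0.23 and -0.35 in the CAS samples and at 0.23 and 0.27 in the SPI samples. The diets did not overlap, and the arrays of a diet lay closer to each other than to either array of the other diet. SPI was 1.45-fold the level of CAS (95% interval 1.25 to 1.68, difference 0.54, SE 0.083, n = 2 arrays per diet), with an unadjusted p of 0.00119 and an adjusted p of 0.0625 by limma. A smaller p was found for 1.91% of all probe sets.

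The other Trp63 probe sets were all in the level class 4 to 8, below the class 8 to 16 of 1418158_at. On 1459581_at the CAS arrays were at -0.20 and -0.080 and the SPI arrays at 0.46 and 0.080, a difference of 0.41 (SE 0.14, limma adjusted p = 0.243). On 1452027_a_at the CAS arrays were at -0.19 and -0.012 and the SPI arrays at 0.012 and 0.25, a difference of 0.23 (SE 0.12, limma adjusted p = 0.381). The diets did not overlap on either of these, but the SPI arrays lay 0.38 and 0.23 apart. On 1451876_a_at the diets overlapped, with CAS at -0.17 and 0.031, SPI at -0.031 and 0.21 and a difference of 0.16 (limma adjusted p = 0.562). All 4 differences thus had the same sign, and their intervals overlapped.

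Whether Trp63 passed depended on how its probe sets were combined. The mean of its 4 probe sets was 0.33 higher in SPI (SE 0.069, limma adjusted p = 0.0683 over 18193 genes), where 0.901% of genes passed as higher. With the probe sets of the highest level class in place of all, which leaves 1418158_at alone, it passed (limma adjusted p = 0.0314, with 0.781% of genes passing as higher). It also passed among probe sets at level 4 or above (limma adjusted p = 0.0291). With the arrays centred on hybridization controls, 1418158_at was at 0.69 and 1459581_at at 0.56 (limma adjusted p = 0.0183 and 0.043). That centring moved the median over all probe sets from 0.023 to 0.18 and the calls from 112 higher and 564 lower to 1557 higher and 704 lower. When any 1 array was left out, which keeps 1 array in that diet, the difference of 1418158_at lay between 0.47 and 0.60.

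**Figure D2:**
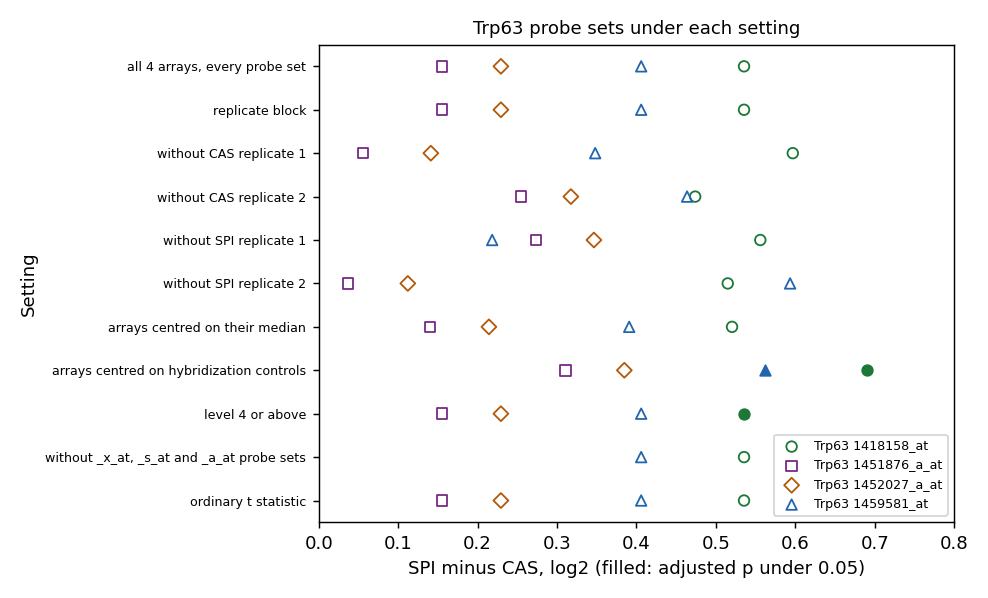
Difference between diets (SPI minus CAS, log2, horizontal axis) of the 4 Trp63 probe sets under each setting (rows), with a filled marker where the limma adjusted p was under 0.05. All points lie above 0, those of 1418158_at between 0.47 and 0.69, and filled markers appear in the rows for hybridization controls and for level 4 or above.

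Genes that p63 is known to act with or upon did not pass either. Of 14 such genes, measured by 29 probe sets, 0 passed in limma, and at an unadjusted p under 0.05 there were 12 higher and 2 lower probe sets, where 9.43% of all probe sets were higher and 8.35% lower. The count of 0 became 6 with arrays centred on hybridization controls, 2 at level 4 or above, 2 at a threshold of 0.1 and 1 with 1 mean value per gene. The list median was 0.15, beside 0.023 for all probe sets. Fgfr2, a fibroblast growth factor receptor, had its smallest p on a probe set with a difference of 0.47 (SE 0.076). Dst, a hemidesmosome linker, had its smallest p on one with 0.40 (SE 0.075). The 2 lower probe sets measured Igfbp3, at -0.33, and Itga3, at -0.19.

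Of 14 genes of basal and myoepithelial identity, Krt15 and Oxtr rose in SPI and 12 did not pass. Krt15, a basal keratin, was at -0.43 and -0.33 in CAS and at 0.33 and 0.38 in SPI, a 1.66-fold difference. Oxtr, the oxytocin receptor through which myoepithelium contracts, was 1.61-fold higher on 1 of its 2 probe sets. The other Oxtr probe set was at 0.30 and did not pass (limma adjusted p = 0.187). Of the 30 probe sets in this list 6.67% passed, 17 had both SPI arrays above both CAS arrays and 0 had both below, and the median was 0.092. Over all probe sets 1.50% passed, 27.9% had both SPI arrays above and 20.5% both below. This list was chosen with earlier results of these data known, so its shares are no test of basal genes as a group. The basal keratin Krt5 and the smooth muscle genes Cnn1 and Myh11 lay in the level class 8 to 16, with differences of -0.042, -0.086, and 0.082 and 0.057, and did not pass. The 3 probe sets of the basal keratin Krt14 were at -0.011, 0.48 and -0.012, with limma adjusted p of 0.966, 0.338 and 0.96. Of the other genes that did not pass, Lgals7 had the largest difference, 0.58 (limma adjusted p = 0.089). No probe set of the whole table passed when any 1 array was left out, with 4882 to 6513 at an unadjusted p under 0.05 in limma.

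Markers of other cell types moved with diet on the same arrays. Of 8 fibroblast markers 7 fell, with list medians of 0.68 and 0.70 in CAS and -0.63 and -0.73 in SPI. Of 10 luminal markers 5 fell and 5 did not pass. The luminal list medians were 0.26 and 0.21 in CAS and -0.20 and -0.27 in SPI. Both SPI arrays lay below both CAS arrays on 19 of the 24 luminal probe sets and above on 4. Over all probe sets the shares were 20.5% and 27.9%. Pgr, among those that did not pass, was at 0.17, 0.28 and 0.35 (limma adjusted p = 0.47, 0.168 and 0.194). Of 8 endothelial markers 1 fell, Cdh5, an adhesion protein of vessel walls, on 1 of its 2 probe sets. The other Cdh5 probe set was at 0.10 (limma adjusted p = 0.77), and the list median was -0.63. Levels cannot be summed for these lists because the values are centred. In bulk samples such as these, fewer cells of a type and less RNA per cell cannot be told apart. The part of these cells in the differences of Trp63 and of the genes below was not tested.

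Procr, the receptor of activated protein C, was measured by 1 probe set, which can bind related transcripts by its suffix. It was at 0.14 in both CAS samples and at -0.20 and -0.14 in the SPI samples. The CAS arrays lay 0.0056 apart and the SPI arrays 0.066 apart, and the diets did not overlap. CAS was 1.24-fold the level of SPI (95% interval 1.09 to 1.42, difference -0.31, SE 0.075, unadjusted p = 0.0086), which did not pass (limma adjusted p = 0.144). The difference was -0.15 with arrays centred on hybridization controls. Endothelial cells also express Procr, and the endothelial list median on these arrays was the -0.63 given above. Of 7 other genes of the protein C pathway, Thbd, the thrombomodulin that activates protein C on vessel walls, fell 2.05-fold, from 0.46 and 0.42 in CAS to -0.42 and -0.76 in SPI. The other 6 genes of that pathway did not pass, and the list median was -0.058.

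Cd24a is a small surface glycoprotein that is higher on luminal than on basal cells and is commonly used to sort mammary cells. Both SPI arrays lay below both CAS arrays on all 3 of its probe sets, where 20.5% of all probe sets had both below. On 1437502_x_at the CAS arrays were at 0.13 and 0.10 and the SPI arrays at -0.23 and -0.10, a difference of -0.28 (SE 0.082, limma adjusted p = 0.19). On 1448182_a_at they were at 0.11 and 0.060 in CAS and at -0.060 and -0.10 in SPI, a difference of -0.16 (limma adjusted p = 0.338). The gap between the diets was smallest on 1416034_at, with values of 0.071 and 0.0018 in CAS against -0.050 and -0.0018 in SPI. Its difference was -0.062 (limma adjusted p = 0.73), which turned to 0.093 with arrays centred on hybridization controls, while the others were then at -0.13 and -0.0084. The luminal list median was -0.48, with Krt18, a luminal keratin, 1.66-fold lower in SPI. Cldn3, a tight junction claudin, was 1.87-fold lower on the 1 of its 4 probe sets that passed. The differences of all 4 lay between -0.91 and -0.72. Pgr of that list had the positive differences given above. Cd24a was not called a change, and the part of luminal cells in its values was not tested.

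Lgr6, a receptor for R-spondins that strengthens Wnt signals, was measured by 2 probe sets with different values and overlapping intervals. On 1436218_at the CAS arrays were at -0.12 and -0.096 and the SPI arrays at 0.12 and 0.096, a difference of 0.21 (SE 0.073, limma adjusted p = 0.231). The diets were apart there, but on 1427028_at both SPI arrays, at -0.0064 and 0.0064, lay between the CAS arrays at -0.072 and 0.13. The difference on that probe set was -0.027 (limma adjusted p = 0.92), and 0.13 with arrays centred on hybridization controls. Of 8 genes of the R-spondin axis, which holds its ligands, the related receptors and the ligases Znrf3 and Rnf43, 0 of 13 probe sets passed in limma and 3 were higher at an unadjusted p under 0.05. Rspo3, a ligand, was at 0.29 and 0.013 on its 2 probe sets, both in the level class 2 to 4 (limma adjusted p = 0.173 and 0.96). Rnf43, a ligase that removes Wnt receptors, was at 0.26 (limma adjusted p = 0.208).

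Tspan8, a tetraspanin of the cell surface, was measured by 5 probe sets with differences between -0.16 and 0.071. The lowest was 1420019_at, at 0.13 and 0.029 in CAS and -0.029 and -0.13 in SPI (SE 0.084, limma adjusted p = 0.404). The diets were apart on this one and on 1420017_at (-0.096) and overlapped on the other 3. On 1424649_a_at, the Tspan8 probe set in the highest level class, the difference was -4e-04 with a 95% interval from -0.20 to 0.20. Of 20 other tetraspanins 1 fell, Cd82, a suppressor of cell motility, which was 1.79-fold lower on 1 of its 2 probe sets. The other Cd82 probe set was at 0.092 (limma adjusted p = 0.62). The tetraspanin list median was -0.11.

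Prom1, the pentaspan glycoprotein CD133, was at 0.025 and -0.15 in CAS and 0.061 and -0.025 in SPI on its 1 probe set. The diets overlapped, with a difference of 0.082 (SE 0.095, limma adjusted p = 0.709). The 95% interval ran from -0.16 to 0.33.

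Bmi1 is the polycomb subunit that helps to silence the Cdkn2a locus. Both SPI arrays lay above both CAS arrays on both of its probe sets, where 27.9% of all probe sets had both above. On 1448733_at the CAS arrays were at -0.080 and -0.091 and the SPI arrays at 0.080 and 0.20, a difference of 0.23 (SE 0.081, unadjusted p = 0.0379, limma adjusted p = 0.252). On 1417493_at they were at -0.020 and -0.28 in CAS and at 0.020 and 0.071 in SPI, a difference of 0.19 (SE 0.11, limma adjusted p = 0.425). The CAS arrays differed by 0.26 on the latter, more than the diets did. The mean of both was 0.21 higher in SPI (limma adjusted p = 0.221 over genes). Of 15 genes of the polycomb complex and its target Cdkn2a, 0 of 33 probe sets passed in limma and 6 had an unadjusted p under 0.05, 2 higher and 4 lower. Cbx7, a chromobox reader of the complex, was at -0.37, and Pcgf1, a relative of Bmi1, at 0.31. The list median was 0.0022.

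Sox9, a factor of luminal progenitors and stem cells, had differences of -0.14, -0.13 and 0.040 on its 3 probe sets. On 1451538_at the CAS arrays were at 0.044 and 0.071 and the SPI arrays at -0.044 and -0.093 (SE 0.074, limma adjusted p = 0.444). On 1424950_at SPI array 2, at -0.20, lay far below the other arrays, which were between -0.0030 and 0.075 (limma adjusted p = 0.516). The third, 1433889_at, had the opposite sign and lay in the class 2 to 4. With arrays centred on hybridization controls the first pair were at 0.030 and 0.017.

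Sox10, a factor of neural crest and of basal mammary cells, did not separate the diets on any of its 3 probe sets. CAS array 1 was lowest on all of them, at -0.15, -0.12 and -0.19, while CAS array 2 was at 0.024, 0.026 and 0.068. The CAS arrays thus lay 0.15 to 0.26 apart, against diet differences of 0.15, 0.083 and 0.062 (limma adjusted p between 0.555 and 0.83). Schwann cells also express Sox10. Of 8 Schwann cell and glial markers 1 fell, Erbb3, a receptor that luminal cells also carry, on 1 of its 2 probe sets. The other Erbb3 probe set was at 0.19 (limma adjusted p = 0.43), and the list median was -0.23. Of 13 other Sox genes 1 fell, Sox17, a factor of endothelial cells, 1.57-fold lower on 1 of its 2 probe sets. The other Sox17 probe set was at -0.79 (limma adjusted p = 0.0784), and the list median was 0.024.

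Bcl11b had 4 probe sets with differences from -0.027 to 0.23. On 1452966_at the CAS arrays were at -0.076 and -0.20 and the SPI arrays at 0.097 and 0.076, a difference of 0.23 (SE 0.083, unadjusted p = 0.0399, limma adjusted p = 0.257). The diets were apart there and overlapped on the other 3, whose differences were -0.027, 0.026 and 0.0070. The mean of all 4 was 0.058 (limma adjusted p = 0.656 over genes). Among 7 T cell markers, Cd3e was at 0.053, Cd3d at -0.059 and Cd3g at 0.18, none of which passed, and Thy1, which fibroblasts also express, fell 3.18-fold. The related gene Bcl11a, a factor of luminal progenitors and stem cells, was 1.46-fold higher in SPI on the 1 of its 7 probe sets that passed (limma adjusted p = 0.0495). That probe set lies in the level class 2 to 4, which also holds 30 of the 43 olfactory receptor probe sets. The differences of the 7 Bcl11a probe sets lay between 0.12 and 0.55. Those in the level class 4 to 8 were at 0.44, 0.40, 0.36, 0.20 and 0.18. Their limma adjusted p lay between 0.0899 and 0.324, so none of these passed.

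**Figure D3:**
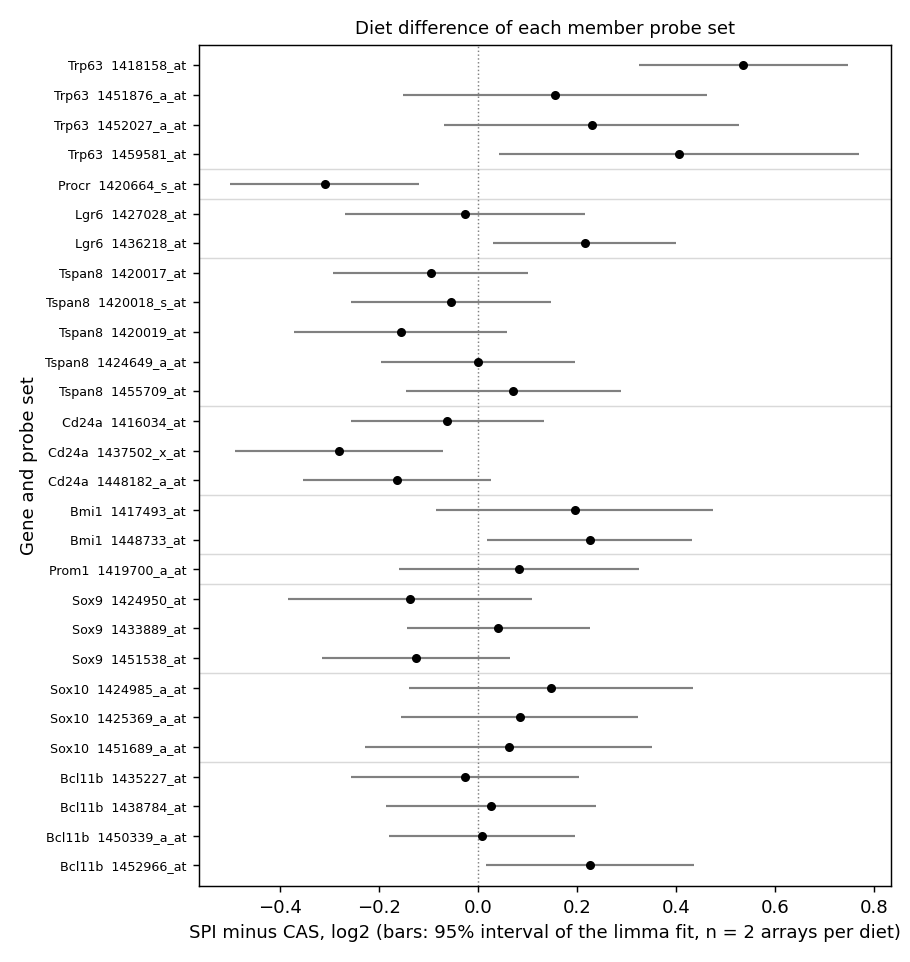
Difference between diets (SPI minus CAS, log2, horizontal axis) of each of the 28 member probe sets (rows, by gene), with the 95% interval of the limma fit over 2 arrays per diet. The highest interval end is 0.77, and the intervals of 5 probe sets lie wholly above 0 and those of 2 wholly below.

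Among 25 other genes tied to mammary stem or progenitor cells, Bcl11a passed as higher, Nrp1, Aldh1a3 and Kit fell, and 21 did not pass. Bcl11a passed only on the 1 probe set of low level class described above, while all 7 of its probe sets had positive differences. Nrp1, a receptor for semaphorins and vascular growth factors, was at 0.73 and 0.78 in CAS and at -0.83 and -0.73 in SPI, a 2.90-fold difference (SE 0.080 on the log2 scale), and 3 of its 4 probe sets passed. Aldh1a3, a retinaldehyde dehydrogenase of luminal progenitors, was 2.10-fold lower on the probe set with its smallest p. It passed on 2 of its 3 probe sets, with differences from -1.84 to -0.53 over the 3. Kit, the receptor of stem cell factor and a luminal progenitor marker, was 2.18-fold lower on 1 of its 2 probe sets. The other Kit probe set was at -0.92 and did not pass (limma adjusted p = 0.186). Of the 68 probe sets of this list 10.3% passed, against 1.50% of all, and the list median was -0.037. The list was chosen with earlier results of these data known, so its share is no test of these genes. The genes that fell are ones that luminal, endothelial or stromal cells also express, and those lists had negative medians on the same arrays. Their part in these values was not tested.

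**Figure D4:**
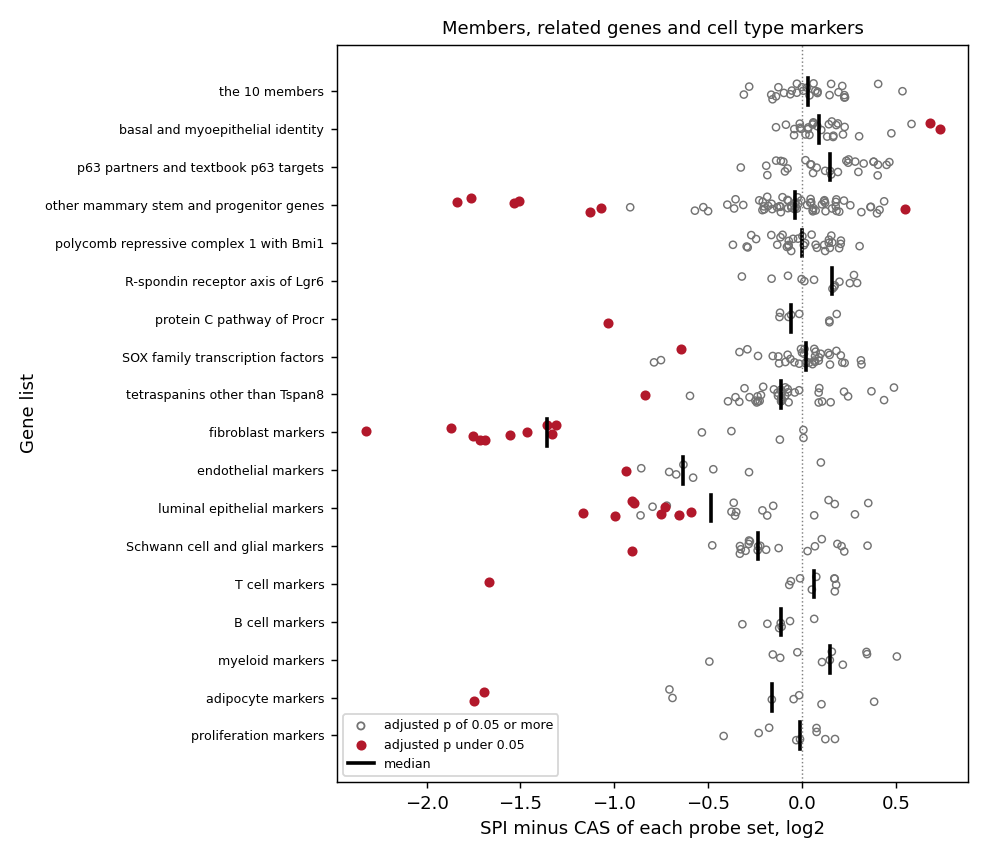
Difference between diets (SPI minus CAS, log2, horizontal axis) of every probe set of the 10 members, of 8 lists of related genes and of 9 lists of cell type markers (rows), with the median as a bar and filled red points where the limma adjusted p was under 0.05. The members have no red point and a median of 0.033, while the fibroblast markers have a median of -1.36 and 10 red points.

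The remaining lists gave few calls. Of 5 adipocyte markers Lpl, a lipase of fat cells, fell 3.35-fold and 4 did not pass. Of those 4, Adipoq, Cidec and Lep, in the level class 2 to 4, were at 0.38, 0.10 and -0.0445. Fabp4 lay between -0.71 and -0.015. Of 5 B cell, 8 myeloid and 6 proliferation markers 0 passed in limma, with 1, 4 and 2 probe sets at an unadjusted p under 0.05. Ms4a1, a B cell surface protein, was at -0.32, S100a8, a granulocyte protein, at -0.49, and Cd68, a macrophage protein, at 0.51. Of the proliferation genes, Birc5, which acts in cell division, was at -0.42 and Pcna, a DNA clamp of replication, at -0.23. With 2 arrays against 2, an exact permutation test of a single probe set cannot go below a two-sided p of 0.333, so the calls rest on the spread that limma shares across probe sets.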

How the data were processed

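RNA from 4 sorted samples was measured on 4 arrays. Per the submitters' processing notes GCOS and RMA were used, in versions that the sources here do not give. The authors deposited log2 expression values, the base being that of RMA. The median of each probe set over the arrays was 0 to within 5e-07, so the authors also centred them, a step no label records. No genome build is named. Of 45037 probe sets beside 64 controls, 34945 had exactly 1 gene in the platform annotation, 932 several and 9160 none. Symbols of the lists were updated by gene ID, which matched 34741.

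A model with diet alone was fitted to every probe set in R 4.3.3 with limma 3.58.1 (lmFit, then eBayes). Tests were two-sided, p-values were adjusted by Benjamini-Hochberg across the whole table, and the threshold was 0.05. The residual degrees of freedom were 2 and the prior ones 3.11. No probe set was filtered. A test on simulated data (5 runs, 200 changed of 45037 probe sets) gave 4.47% false calls, with recoveries of 0.597%, 51.6% and 95.8% for changes of 0.585, 1 and 2. The number of arrays limits the precision.

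The members and lists were chosen with earlier results of these data known. Named genes were all members and, of each list, up to 4 called genes with the smallest p, or 2 where none passed. Krt5, Krt14, Cnn1, Myh11, Lgals7 and the Cd3 genes were named after their values were seen. Pgr, Igfbp3, Itga3, Adipoq, Cidec, Lep and Fabp4 were also named outside this rule. Alternatives were a replicate block, each array left out, other centrings, values per gene and a level filter. Further ones were a fit without _x_at, _s_at and _a_at probe sets, an ordinary t statistic and a threshold of 0.1.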

Additional observations from a re-analysis of the deposited data

How the results depend on the processing

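No member probe set passed in the main test, with the replicate number as a block or with arrays centred on their median. None passed with an ordinary t statistic, with 1 mean value per gene or without _x_at, _s_at and _a_at probe sets. That last filter kept 16 of the 28 and left out every probe set of Procr, Prom1 and Sox10. In these runs 3 to 7 members had an unadjusted p under 0.05, in limma or by the ordinary statistic. Passing were 2 with arrays centred on hybridization controls, 1 at level 4 or above, 1 gene by the highest level class and 1 at a threshold of 0.1, all of Trp63. Of all probe sets, 676 passed, 79 with the replicate block, 2261 (1557 higher and 704 lower, against 112 and 564) with hybridization controls, 1329 (400 higher) at level 4 or above, 1 by the ordinary t statistic, 1579 at a threshold of 0.1, and 0 to 0 without any 1 array. Over all probe sets the deviations of CAS 1 and SPI 1 correlated at -0.099, so the replicate numbers showed no pairing across the table. A pairing limited to some probe sets was not tested. The block left 0 passing in the basal list (from 2), the luminal list (from 8) and the endothelial, protein C, SOX, tetraspanin and Schwann cell lists (from 1 each), and the counts went from 10 to 5 in the fibroblast list and from 7 to 2 in that of other stem and progenitor genes. Over the lists of related genes and markers, 93 of 153 counts recomputed on all 4 arrays stayed close to the main one, 30 were larger and 30 smaller.

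Of the 28 member differences, 16 kept their sign under every alternative run. With hybridization controls the sign turned for Bcl11b 1435227_at (0.13), Cd24a 1416034_at (0.093), Lgr6 1427028_at (0.13), Sox9 1424950_at (0.017) and 1451538_at (0.030), and Tspan8 1420017_at (0.059), 1420018_s_at (0.10) and 1424649_a_at (0.16). Bcl11b 1450339_a_at turned to -0.0081 with arrays centred on their median. Leaving out 1 array gave both signs for Bcl11b 1435227_at (-0.11 to 0.054), 1438784_at (-0.023 to 0.076) and 1450339_a_at (-0.012 to 0.026), Lgr6 1427028_at (-0.13 to 0.072), Prom1 (-0.0072 to 0.17), Sox10 1451689_a_at (-0.068 to 0.19) and Tspan8 1424649_a_at (-0.035 to 0.034). The cause was not tested.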
